A study of Danio rerio with 9 samples.

Results

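Transcripts of 9 genes of the zebrafish (Danio rerio) clotting and clot-dissolving system were followed through loss and regrowth of the atrioventricular heart valve. They were f13a1a.1 and f13a1b (factor XIII A chains), f3a and f3b (tissue factor), tfpia (tissue factor pathway inhibitor), serpine2 (a protease inhibitor), plat (tissue plasminogen activator), and plaua and plaub (urokinase plasminogen activators). They were found by an exact match of the gene symbol among 21692 genes in the table. The genes had been chosen by their values in these same libraries, so their values are given as a description, without p-values. Of the 9 members, 8 had a normalised count of at least 10 in at least 3 libraries and entered the model with 17891 genes in all; plaub did not.

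The groups were valve tissue at 48 h after ablation, valve tissue at 21 d after ablation and uninjured valve tissue, with 3 libraries each. For ablation, fish were held singly in the dark in 2.5 mM metronidazole for 6 h. A bacterial nitroreductase, where cells have been made to carry one, turns metronidazole into a poison. The labels do not name the transgene or the promoter that drives it, give no strain or age, and do not say whether uninjured fish were bathed in the drug. The source given for every library is 2 hearts, from which valve tissue was cut out of cryosections by laser capture microdissection, and was made from 20 ng of RNA. Whether the 3 libraries of each group stem from different animals is not stated, so errors and p-values reflect differences among these libraries, possibly technical ones.

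Tissue factor is the cell-surface protein that starts clotting when it meets blood, by binding factor VII and leading through factor X to thrombin, and tissue factor pathway inhibitor blocks that step. Thrombin cuts fibrinogen into fibrin, and factor XIII A, a transglutaminase, ties fibrin strands to each other and to matrix proteins. Plasmin dissolves fibrin and cuts matrix proteins. It is made from plasminogen by tissue-type and urokinase-type activators, which are held in check by serpins, a family of protease inhibitors. In mammals factor XIII A is made by megakaryocytes and by macrophages, and most soluble clotting proteins come from the liver.

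Values are read counts that the authors divided by a size factor per library, called normalised counts below. Fold changes are on the scale of log2(normalised count + 1), with SE and 95% intervals from limma over all 9 libraries. Column totals ran from 15383031 to 21616553. A count of 0 in a library allowed up to 3 reads, which is a normalised count between 2.15 and 3.52 depending on the library. Transcript lengths were not at hand, so levels are not compared between genes. Whether groups overlap is given as a description. The share of all genes whose groups do not overlap is not given here, so nothing is read from a lack of overlap. In tissue pieces such as these, fewer cells of a type and less RNA per cell cannot be told apart. The captured tissue carried matrix-cell transcripts (dcn, encoding decorin, at 35746 to 39409 in uninjured libraries), endothelial transcripts (cdh5, encoding VE-cadherin, at 8202 to 11761) and heart-muscle transcripts (myl7, encoding a myosin light chain, at 63368 to 82079).

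At 48 h, f13a1a.1 and plat were lower than in uninjured valves and plaua was higher. These 3 of the 8 tested members passed an adjusted p of 0.05 over all genes, 1 higher and 2 lower. Of all 17891 genes, 4.44% passed higher and 6.33% passed lower in that comparison. Against uninjured, no tested member at 21 d passed in either direction, where 0.520% of all genes passed higher and 0.933% lower. Between 21 d and 48 h, f13a1a.1, f3b and plat passed higher and tfpia and plaua lower, where 5.48% of all genes passed higher and 4.40% lower. The members were chosen on these comparisons, so nothing is read from their counts. The same shares belong beside the counts of the gene lists below, which were also chosen with earlier results of these data known. The median log2 fold change of the 8 members was -0.18 at 48 h and 0.45 at 21 d, both against uninjured, and 0.50 at 21 d against 48 h, beside 0.01, 0.02 and 0 over all genes tested.

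**Figure D1:**
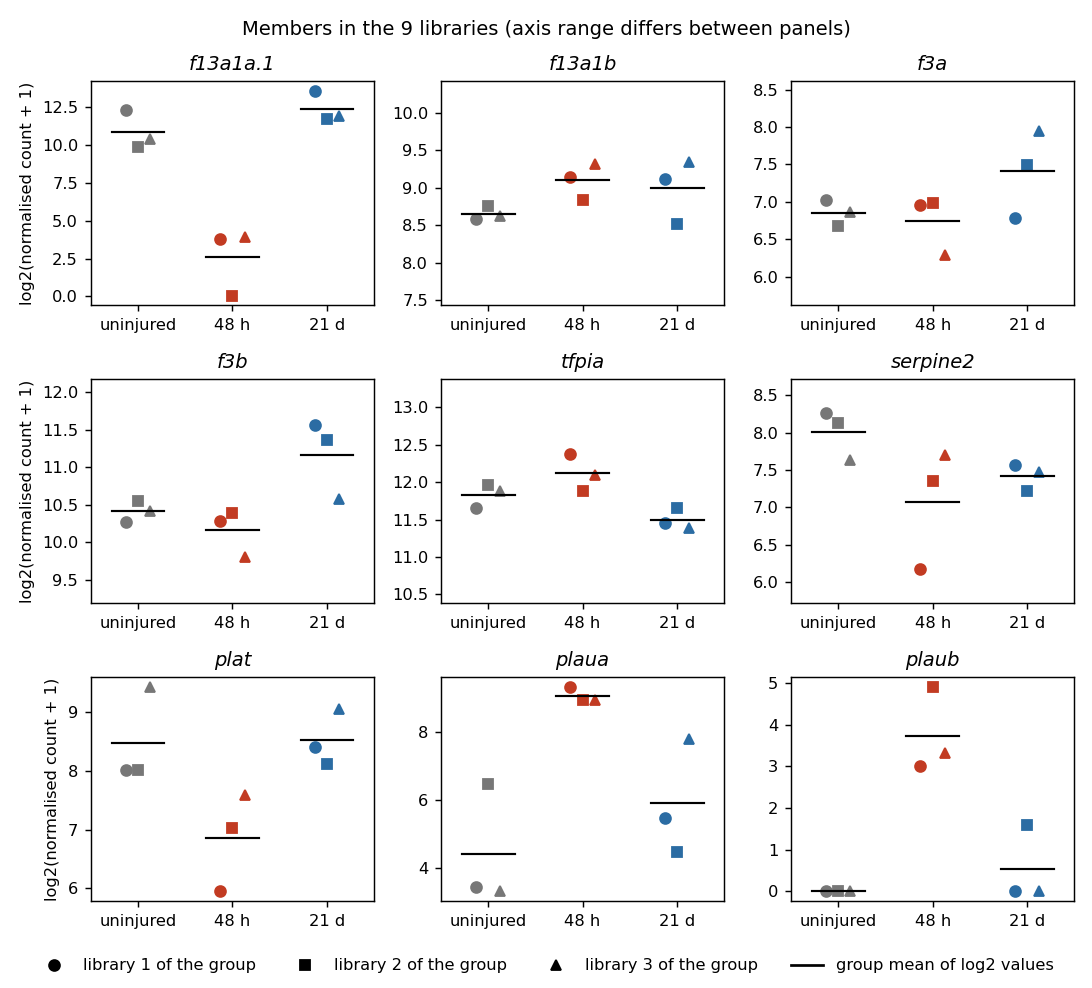
Values of the 9 members in each library, as log2(normalised count + 1), for uninjured, 48 h and 21 d valve tissue in that order. Points are libraries, and marker shapes are library numbers, which were not used to pair libraries across groups. Bars are group means of the log2 values, and each panel has its own axis range. The 3 libraries at 48 h lie lowest for f13a1a.1 and plat and highest for plaua and plaub.

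The factor XIII A gene f13a1a.1 (ENSDARG00000045453) had the widest swing of the members. Its normalised counts were 4978, 950 and 1328 in the uninjured libraries, 13, 0 and 14 in the 48 h libraries and 11956, 3419 and 3833 in the 21 d libraries. The 48 h libraries lay below all others, by a gap of 67.9-fold between the lowest uninjured library and the highest 48 h library. The library at 0 allowed a normalised count of up to 2.69. The log2 fold change at 48 h against uninjured was -8.28 (SE 1.26, 95% interval -11.33 to -5.23), a level 311-fold lower on the fitted scale, and group means differed 269-fold. The size of the fitted change depends on how values near 0 are handled, and over all settings tried it ran from -8.95 to -6.99.

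The uninjured libraries differed 5.24-fold among themselves in f13a1a.1 and the 21 d libraries 3.50-fold. At 21 d its log2 fold change was 9.83 against 48 h (SE 1.26, 95% interval 6.77 to 12.88) and 1.55 against uninjured (SE 1.26, 95% interval -1.51 to 4.60). The 21 d values overlapped the uninjured ones, because uninjured library 1 was higher than 2 of the 21 d libraries. The interval against uninjured takes in a lower level, no difference and a level several times higher.

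Besides f13a1a.1 and f13a1b, the table holds another identifier described as a factor XIII A chain, under the symbol F13A1 (ENSDARG00000094832). It was named after its values were seen. Its normalised counts were 62, 0 and 7 in the uninjured libraries, 0 in every 48 h library and 76, 23 and 19 in the 21 d libraries. It was thus listed at 0 where f13a1a.1 was lowest. Its log2 fold changes did not pass the test, with limma adjusted p of 0.333 at 48 h against uninjured and 0.0743 at 21 d against 48 h. In a RefSeq gene table of the assembly GRCz12tu, a gene named f13a1a.2 lies beside f13a1a.1 with ly86 between them. Whether it is the gene listed here as F13A1 could not be told from the sources used. How reads were shared out between alike factor XIII A copies is uncertain, and no gene under the symbol f13a1a.2 was analysed here.

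The paralogue f13a1b (ENSDARG00000036893) varied over a narrower range. Its normalised counts were 383, 431 and 393 in uninjured libraries, 567, 457 and 639 at 48 h and 556, 364 and 649 at 21 d. All 3 libraries at 48 h lay above all 3 uninjured ones, by 1.06-fold at the nearest. At 48 h against uninjured the log2 fold change was 0.45 (SE 0.30, 95% interval -0.18 to 1.08). Set against 48 h, 21 d had -0.11 (SE 0.30, 95% interval -0.74 to 0.52), and the 21 d libraries overlapped both other groups.

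Of 13 other transglutaminase and factor XIII genes looked for, 7 were in the table and 6 were tested, and none passed in any of the 3 comparisons. One of them, tgm2b, which encodes a tissue transglutaminase, had a log2 fold change of -0.10 at 48 h against uninjured (SE 0.17, limma adjusted p = 0.784), with an interval from -0.47 to 0.26. Its direction turned with other scalings.

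Of the tissue factor genes, f3b (ENSDARG00000005673) was higher at 21 d. Its normalised counts were 1235, 1491 and 1364 in uninjured libraries, 1243, 1345 and 891 at 48 h and 3017, 2643 and 1520 at 21 d. Each 21 d library lay above every other library, but library 3 only by 1.13-fold over the highest at 48 h and 1.02-fold over the highest uninjured one. The log2 fold change was 1.01 at 21 d against 48 h (SE 0.25, 95% interval 0.49 to 1.52) and 0.76 at 21 d against uninjured (SE 0.25, 95% interval 0.24 to 1.27), of which the first passed the threshold over all genes and the second did not. Against 48 h it no longer passed without 48 h library 3, 21 d library 1 or 21 d library 2, or with equal column totals, where the log2 fold change was 0.76. At 48 h against uninjured the difference was -0.25 (SE 0.25, 95% interval -0.77 to 0.26), and with equal column totals 0.03.

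The other tissue factor gene, f3a (ENSDARG00000099124), had normalised counts of 129, 101 and 115 in uninjured libraries, 123, 126 and 77 at 48 h and 109, 179 and 245 at 21 d. The groups overlapped in all 3 comparisons. Its log2 fold change was 0.55 at 21 d against uninjured (SE 0.53, 95% interval -0.54 to 1.64) and 0.66 at 21 d against 48 h (SE 0.53, 95% interval -0.43 to 1.75). The 21 d library with most f3a, library 3, had the least f3b of that group. Whether the genes differ in their response was not tested.

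The inhibitor gene tfpia (ENSDARG00000034718) moved over a narrow range. Its normalised counts were 3232, 3982 and 3778 in uninjured libraries, 5322, 3790 and 4383 at 48 h and 2811, 3234 and 2670 at 21 d. The 21 d libraries lay below the 48 h ones, with a log2 fold change of -0.62 (SE 0.19, 95% interval -1.01 to -0.24), and overlapped the uninjured ones, with -0.33 (SE 0.19, 95% interval -0.72 to 0.05). At 48 h against uninjured it was 0.29 (SE 0.19, 95% interval -0.10 to 0.67), which among the settings tried passed only with quantile normalization, at 0.62. The call at 21 d against 48 h was lost when 48 h library 1 or 3 or 21 d library 1 or 3 was left out, with log2 fold changes between -0.63 and -0.49.

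Among 17 genes of fibrinogen and the thrombin cascade, 8 were in the table and tested, and f5 and f10 passed at 48 h. The gene f5, encoding the cofactor of thrombin formation, had 971, 1298 and 515 normalised counts at 48 h, against 527, 339 and 340 in uninjured libraries. Library 3 at 48 h lay just below uninjured library 1, so the groups overlapped, and the log2 fold change was 1.14 (SE 0.36, limma adjusted p = 0.0461). The gene f10, encoding the protease that cuts prothrombin, had 2183, 3041 and 2186 at 48 h, against 5337, 4890 and 4981 in uninjured libraries. These groups did not overlap, and its log2 fold change was -1.05 (SE 0.25, limma adjusted p = 0.00779).

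Between 21 d and 48 h both turned the other way, f5 with -1.34 (limma adjusted p = 0.0192) and f10 with 0.86 (limma adjusted p = 0.031), and at 21 d against uninjured no gene of this list passed. The f5 call at 48 h was lost without uninjured library 2 or 3 or 48 h library 1 or 2, with adjusted p between 0.123 and 0.23, and also with a pseudocount of 0.5 or no robust step, while the f10 call at 48 h held in every setting tried. At 21 d against 48 h the f5 call was lost without 48 h library 1 or 2 or 21 d library 2, with adjusted p between 0.058 and 0.135. That of f10 was lost without 48 h library 1 or 3 or 21 d library 2 or 3 and under both other scalings, with adjusted p between 0.0732 and 0.185, and with only the groups compared in the fit, at 0.0607. The fibrinogen genes fga, fgb and fgg, prothrombin (f2) and plasminogen (plg) were not analysed here. Of 11 further anticoagulant genes, 5 were tested and none passed at 48 h. Thrombomodulin (thbd), which turns thrombin towards anticoagulant activity, had 351, 125 and 466 in uninjured libraries. The 21 d libraries overlapped these (log2 fold change -0.40, limma adjusted p = 0.792). It was lower at 21 d than at 48 h, with 243, 227 and 161, against 1078, 487 and 436 at 48 h (log2 fold change -1.56, limma adjusted p = 0.0279). That call was lost without 48 h library 1 or any of the 21 d libraries, with adjusted p between 0.0603 and 0.145.

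The plasminogen activators parted at 48 h. The tissue-type activator gene plat (ENSDARG00000062707) had normalised counts of 257, 257 and 686 in uninjured libraries, 61, 130 and 192 at 48 h and 337, 277 and 531 at 21 d. All 48 h libraries lay below all others, by 1.34-fold at the nearest to the uninjured group and 1.44-fold to the 21 d group. The log2 fold change was -1.62 at 48 h against uninjured (SE 0.47, 95% interval -2.60 to -0.65), 1.67 at 21 d against 48 h (SE 0.47, 95% interval 0.69 to 2.64) and 0.04 at 21 d against uninjured (SE 0.47, 95% interval -0.93 to 1.02). The first passed no longer without uninjured library 3, at -1.15, without 48 h library 1, at -1.17, or with equal column totals, at -1.34. The second was lost with equal column totals, at 1.42, and without 48 h library 1, 21 d library 1 or 21 d library 3, at 1.21, 1.73 and 1.40.

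The urokinase gene plaua (ENSDARG00000075265) went the other way. Its normalised counts were 10, 87 and 9 in uninjured libraries, 637, 492 and 491 at 48 h and 43, 21 and 221 at 21 d. The 48 h libraries differed only 1.30-fold among themselves, while the uninjured ones differed 9.67-fold and the 21 d ones 10.5-fold. The lowest 48 h library lay 5.64-fold above the highest uninjured one and 2.22-fold above the highest 21 d one. Its log2 fold change at 48 h against uninjured was 4.65 (SE 0.87, 95% interval 2.85 to 6.46), a level 25.2-fold higher on the fitted scale. Group means differed 15.3-fold, with uninjured library 2 at 87 beside 10 and 9 in the others. The log2 fold change passed in every setting tried, between 4.11 and 5.68. As plaua was chosen by its values in these same libraries, that describes the settings and adds no evidence.

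Set against 48 h, plaua at 21 d had a log2 fold change of -3.16 (SE 0.87, 95% interval -4.97 to -1.36). This call was lost when any of the 48 h libraries, 21 d library 1 or 21 d library 2 was left out, with values between -3.23 and -2.44, and with quantile normalization. Against uninjured, the difference at 21 d was 1.49 (SE 0.87, 95% interval -0.32 to 3.30). Library 3 of the 21 d group, at 221, was the only one of that group above all uninjured libraries.

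The second urokinase gene, plaub (ENSDARG00000039145), was near the limit of detection and was not tested. It was at 0 in all uninjured libraries, at 7, 29 and 9 normalised counts at 48 h and at 0, 2 and 0 at 21 d. Its mean at 48 h was 15.0, which is 4.83-fold above a limit of 3.1 set by 3 reads in each uninjured library. The spread of the 48 h values, from 7 to 29, does not enter that fold. That limit covers counting error only.

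Taken as a ratio of normalised counts, whose absolute size also carries the lengths of the transcripts, plaua over plat was 0.039, 0.339 and 0.013 in uninjured libraries, 10.443, 3.785 and 2.557 at 48 h and 0.128, 0.076 and 0.416 at 21 d. The 48 h libraries were all above the others. The ratio is built from values already given for both genes and adds no separate evidence.

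**Figure D2:**
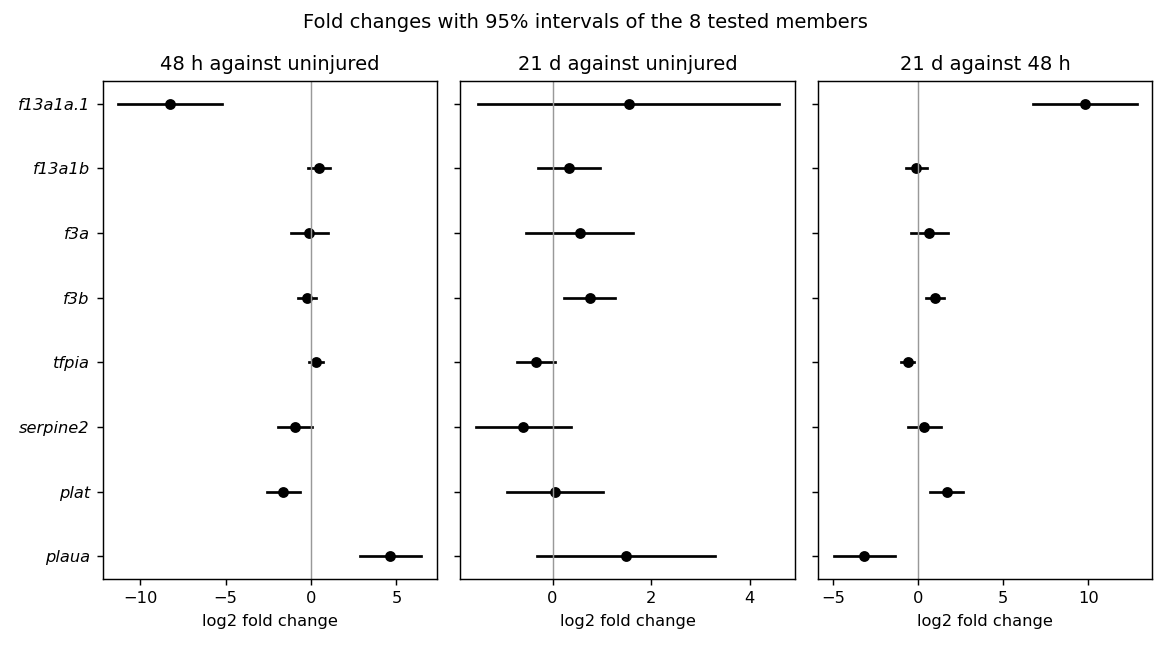
Log2 fold changes with 95% intervals from limma for the 8 tested members, with uninjured as baseline for 48 h (left) and 21 d (middle) and 48 h as baseline for 21 d (right); the horizontal ranges differ between panels. Intervals are not adjusted for the number of genes, and the members were chosen by values in these libraries, so the intervals describe and do not test. At 48 h those of f13a1a.1 and plat lie below 0 and that of plaua above it. At 21 d against uninjured that of f3b alone among the genes shown leaves out 0, but no member passed the threshold over all genes there.

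The gene serpine2 (ENSDARG00000029353), encoding protease nexin, which inhibits thrombin and plasminogen activators, had normalised counts of 306, 280 and 198 in uninjured libraries, 71, 162 and 207 at 48 h and 189, 148 and 176 at 21 d. The 48 h libraries differed 2.92-fold among themselves and overlapped the uninjured ones. The 21 d libraries lay below all uninjured ones, by 1.05-fold at the nearest. The log2 fold change was -0.94 at 48 h against uninjured (SE 0.47, 95% interval -1.91 to 0.03), -0.59 at 21 d against uninjured (SE 0.47, 95% interval -1.56 to 0.38) and 0.35 at 21 d against 48 h (SE 0.47, 95% interval -0.62 to 1.32).

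Of 15 other genes of plasminogen inhibitors, binding proteins and clearance receptors, 8 were in the table and 7 were tested. At 48 h none passed lower and 2 passed higher. These were anxa2a, encoding annexin A2, which with an S100A10 protein binds plasminogen at the cell surface in mammals (log2 fold change 0.90, limma adjusted p = 0.016), and lrp1ab, encoding a receptor that clears complexes of activator and inhibitor (0.75, limma adjusted p = 0.0348). With equal column totals and with quantile normalization s100a10b also passed higher (0.56, limma adjusted p = 0.0125, and 0.72, limma adjusted p = 0.00146), against 0.28 in the main analysis. Lower but short of the threshold in the main analysis were s100a10a (-2.13, limma adjusted p = 0.093), lrp1aa (-0.64, limma adjusted p = 0.0512) and serpine3 (-1.68, limma adjusted p = 0.593). Higher and also short of it were plgrkt (0.92, limma adjusted p = 0.341) and s100a10b (0.28, limma adjusted p = 0.25). The median log2 fold change of the 7 was 0.28, beside 0.01 over all genes. Of the same 7 genes 1 passed lower at 21 d against uninjured, lrp1aa (-0.82, limma adjusted p = 0.0486). This call was lost when any uninjured or 21 d library was left out, with adjusted p between 0.0689 and 0.224, and under both other scalings, a pseudocount of 0.5 or no robust step.

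Set against 48 h, none of these 7 genes passed higher at 21 d and 3 passed lower. They were anxa2a (log2 fold change -1.33, limma adjusted p = 9.4e-04), s100a10b (-0.76, limma adjusted p = 8.4e-04) and lrp1ab (-0.95, limma adjusted p = 0.00797). Higher but short of the threshold, with overlap, were serpine3 (2.25, limma adjusted p = 0.446) and s100a10a (2.11, limma adjusted p = 0.103). Lower and also short of it were plgrkt (-1.13) and lrp1aa (-0.18). Normalised counts of anxa2a were 12420, 20700 and 19455 in uninjured libraries, 29014, 26810 and 41619 at 48 h and 10986, 16854 and 10924 at 21 d. The 48 h libraries were all above the others. The anxa2a call at 48 h was lost without uninjured library 1, 48 h library 1 or 48 h library 3, with adjusted p between 0.0521 and 0.0558, and that of lrp1ab without uninjured library 2 or 3 or 48 h library 2 or 3, with adjusted p between 0.0575 and 0.17. The lrp1ab call at 21 d against 48 h was lost without 48 h library 3, at 0.0522, or 21 d library 2, at 0.0687.

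Of 5 protease-activated receptor genes, which carry the signal of thrombin and related proteases into cells, 2 were tested. The thrombin receptor gene f2r had 977, 1299 and 703 normalised counts at 48 h, against 422, 449 and 353 in uninjured libraries (log2 fold change 1.24, limma adjusted p = 0.0114), and the groups did not overlap. It had 373, 251 and 216 at 21 d, against the 48 h values above (log2 fold change -1.82, limma adjusted p = 3.9e-04). The call at 48 h missed the threshold without uninjured library 3, at an adjusted p of 0.0529, or without 48 h library 2, at 0.0813. The other tested receptor gene, f2rl2, had 199, 118 and 373 at 48 h, against 590, 431 and 274 in uninjured libraries, with overlap. Its log2 fold change was -0.99 (limma adjusted p = 0.487), and it passed in no comparison.

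Over all 5 lists of other pathway genes, 28 were tested. At 48 h 4 passed higher and 1 lower, where 4.44% of all genes passed higher and 6.33% lower. The median log2 fold change was 0.13 beside 0.01 over all genes. Later, at 21 d against uninjured, none passed higher and 1 lower, where 0.520% of all genes passed higher and 0.933% lower. The median there was -0.20 beside 0.02. At 21 d against 48 h, 1 passed higher and 6 lower, where 5.48% of all genes passed higher and 4.40% lower. The median there was -0.23 beside 0. The lists were chosen with earlier results of these data known, so nothing is read from their counts. The comparisons share libraries, so the counts at 48 h and at 21 d against 48 h are not separate evidence.

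**Figure D3:**
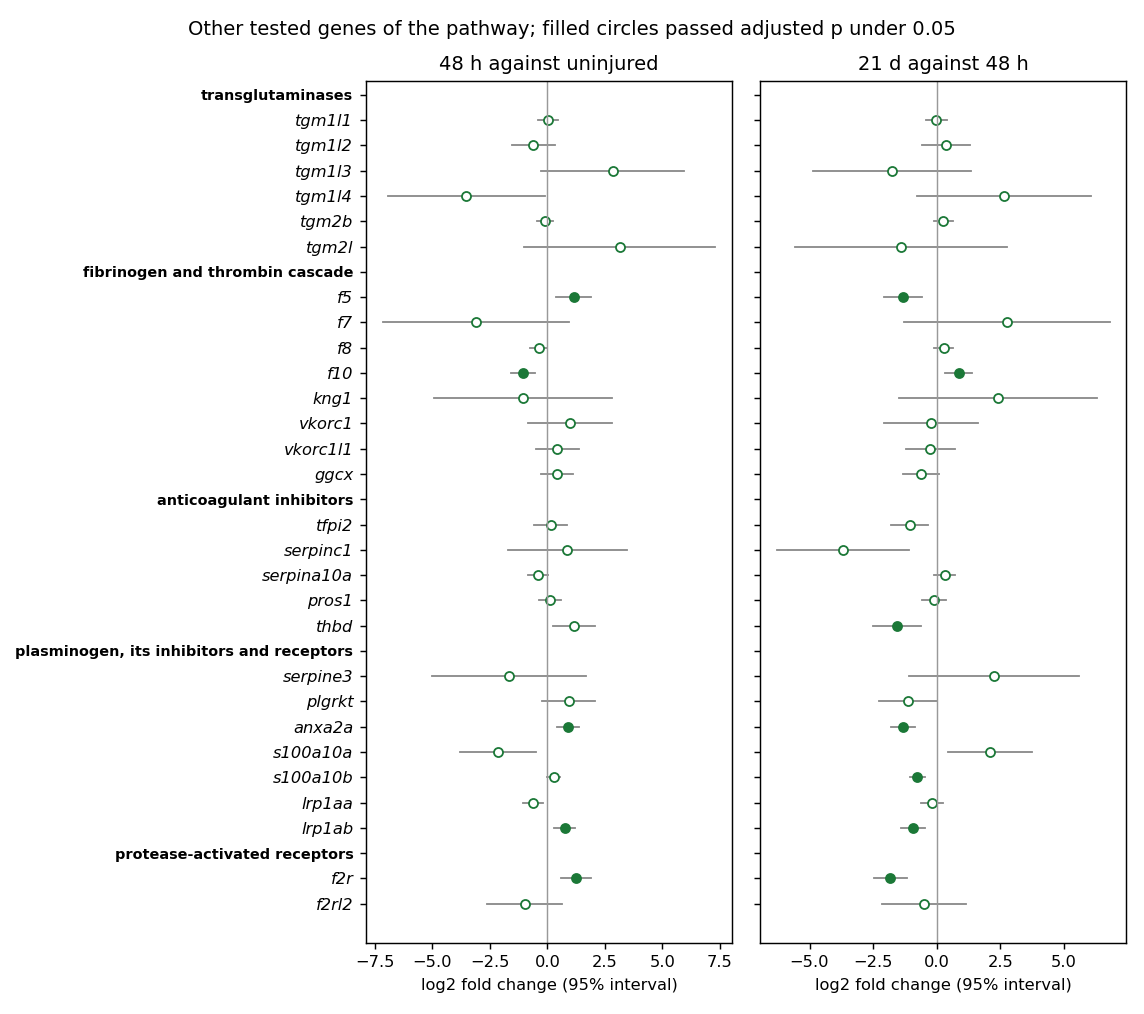
Log2 fold changes with 95% intervals from limma for 28 other tested genes of the pathway, grouped by role, at 48 h against uninjured (left) and 21 d against 48 h (right); filled circles passed an adjusted p of 0.05 over all genes. On the left f5, anxa2a, lrp1ab and f2r passed above 0 and f10 below it, and on the right f10 passed above 0 and 6 genes below it.

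Markers of several cell types also differed between the groups, but which cells made the members was not tested. At 48 h against uninjured, 4.44% of all genes passed higher and 6.33% lower. Of 11 tested macrophage markers, 10 rose at 48 h, among them mpeg1.1 (log2 fold change 2.65, limma adjusted p = 2.0e-05) and csf1ra (1.90, limma adjusted p = 0.00335). The summed level of the list was 7435 to 10411 at 48 h and 3080 to 4390 at 21 d, against 1817 to 1993 in uninjured libraries. The remaining marker, csf1rb, named after its values were seen, had 0, 0 and 3 normalised counts at 48 h, against 30, 54 and 16 in uninjured libraries (log2 fold change -4.27, limma adjusted p = 0.0657). At 21 d it had 111, 81 and 43 and was higher than at 48 h (5.54, limma adjusted p = 0.0163), while 7 of the 11 markers fell between these groups and no other rose. Thus f13a1a.1 and csf1rb were lowest in the 48 h libraries, where the summed macrophage list and plaua were highest. The part of macrophage number in any of these values was not tested.

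Of 9 tested thrombocyte markers (thrombocytes are the nucleated counterpart of platelets in fish), none passed higher and 2 passed lower at 48 h. These were gp1bb (log2 fold change -0.79, limma adjusted p = 0.0431) and vwf, which was named after its values were seen (-0.98, limma adjusted p = 4.7e-04); the gp1bb call was lost in 9 of 14 settings tried. The summed level of that list was 18353 to 20818 at 48 h and 23235 to 29614 at 21 d, against 26694 to 29389 in uninjured libraries. The integrin gene itga2b, which marks the lineage, had 441, 1244 and 694 at 48 h, against 566, 428 and 668 in uninjured libraries, and these overlapped. The summed list was 0.71 of its uninjured mean at 48 h, with vwf at 0.513 and gp1bb at 0.56 of theirs. In uninjured libraries vwf made up the largest part of that sum, with a mean of 12065.3 against 554.0 for itga2b. Besides gp1bb and vwf only thbs1b was lower (log2 fold change -0.12). The other markers were higher, none past the threshold. Among these were fermt3b (1.38, limma adjusted p = 0.117, no overlap) and itgb3b (0.75, limma adjusted p = 0.236). The median log2 fold change of the 9 markers was 0.41, so the sum and the median differ in direction. Which cells made vwf was not tested, and the captured tissue also carried endothelial transcripts. The part of thrombocytes in the values of f13a1a.1 was not tested.

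All 9 tested markers of matrix-producing cells fell at 48 h. Their summed level was 74403 to 93079 at 48 h and 159563 to 182400 at 21 d, against 185895 to 229489 in uninjured libraries. The proteoglycan genes dcn and lum had log2 fold changes of -1.85 (limma adjusted p = 3.7e-09) and -5.41 (limma adjusted p = 4.9e-04). Set against 48 h, 8 of the 9 passed higher at 21 d. At 21 d against uninjured 1 passed lower, elnb, named after its values were seen (log2 fold change -2.53, limma adjusted p = 7.0e-05). The level of f13a1a.1 and plat was lowest in the 48 h libraries, as were the summed matrix-cell, heart-muscle and thrombocyte lists. The part of cell loss in these values was not tested.

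Of 12 endothelial markers 4 passed higher at 48 h, namely tie1, fli1a, fli1b and esama. Of the rest, kdrl, egfl7 and sox7 were lower and the others higher, none past the threshold. The summed level was 27923 to 47425 at 48 h, against 20642 to 25954 in uninjured libraries. At 48 h cdh5 was the largest part of it, with a mean of 14886.7 in a mean sum of 35579.0, and library 1 was highest. The markers kdrl and cdh5 had log2 fold changes of -0.26 (limma adjusted p = 0.5) and 0.47 (limma adjusted p = 0.184) in the main analysis. The gene cdh5 passed with equal column totals (0.75, limma adjusted p = 0.0495), with quantile normalization (0.85, limma adjusted p = 0.0287) and without 48 h library 3 (0.69, limma adjusted p = 0.0386). Of 10 heart-muscle identifiers 5 passed lower at 48 h, with summed levels of 276785 to 340960 at 48 h, against 520273 to 583674 in uninjured libraries. Among them was myl7 (-0.64, limma adjusted p = 0.0244), whose call was lost in 6 of 14 settings tried. Higher but short of the threshold were nppb (1.46, limma adjusted p = 0.0986, no overlap), nppa (0.64), tnni1b (0.36) and a second actc1a identifier (4.17, with overlap). Of 6 neutrophil markers 2 passed higher, mpx and npsn, with summed levels of 619 to 1390 at 48 h, against 258 to 817 in uninjured libraries. Short of the threshold and with overlap, csf3r (2.02) and lyz (0.72) were higher and cpa5 (-0.41) and ncf1 (-0.23) lower. The neutrophil peroxidase gene mpx had 262, 123 and 164 at 48 h, against 0, 0 and 119 in uninjured libraries (limma adjusted p = 0.0264), and its call was lost when any 48 h library or uninjured library 1 or 2 was left out.

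Of 7 erythrocyte identifiers none passed in any comparison, with summed levels of 289727 to 751701 at 48 h and 1066590 to 1530724 at 21 d, against 673320 to 1604201 in uninjured libraries. Of 12 liver markers 8 were in the table and 4 were tested, and none passed. Listed members differed in level: tfa, encoding a transferrin and named after its values were seen, was at 509, 494 and 981 at 48 h and 1377, 409 and 640 at 21 d, against 1235, 772 and 1018 in uninjured libraries. The haptoglobin gene hp, likewise named, reached 224 in 48 h library 3. In contrast fabp10a was detected at 40 in uninjured library 2 and 4 in 48 h library 3, and apoa2 at 11 in 48 h library 3, with 0 in the other libraries.

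**Figure D4:**
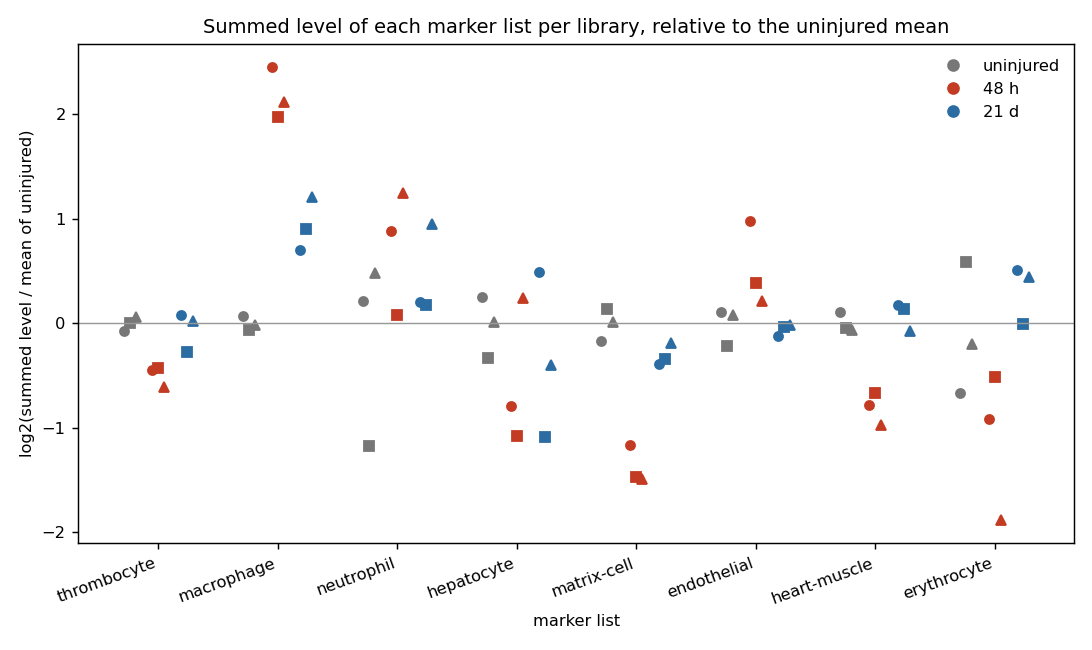
Summed normalised counts of each cell-type marker list per library, as log2 of the ratio to the mean of the uninjured libraries, for uninjured, 48 h and 21 d libraries in that order within each list; marker shapes are library numbers. At 48 h the macrophage list averaged 4.59 times its uninjured mean and the matrix-cell list 0.39 times, and at 21 d 1.94 and 0.81 times.

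Profiles over the 9 libraries were compared with those of all other tested genes by the root-mean-square difference of centred log2 values, where 0 is an identical shape. Nearest to f13a1a.1 were prss35 (difference 1.65), zgc:162608 (1.88) and mafb (2.04), beside an SD of f13a1a.1 itself of 4.50. All 3 were lowest at 48 h, which follows from picking them by likeness to f13a1a.1. There prss35 was at 6, 0 and 6, against 435, 1008 and 526 in uninjured libraries. The next ones were at 31, 2 and 30 (zgc:162608) and at 0 in every 48 h library (mafb). No tested gene came nearer to f13a1a.1 than these.

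Nearest to plaua were si:ch211-163c2.2 (0.71), si:dkey-274m17.3 (0.82) and rhoga (0.83), beside an SD of plaua of 2.26. Nearest to plat were pptc7b (0.42), arhgef28 (0.42) and nbas (0.43), beside an SD of 0.98. For f3b, gpam came at 0.14, slc25a18 at 0.20 and pink1 at 0.22, beside an SD of 0.52, and gpam had 1003, 814 and 655 at 21 d, against 416, 472 and 276 at 48 h. For f3a, gusb and tmem184c came at 0.23 and xrn1 at 0.24, beside an SD of 0.45.

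For tfpia, cct3 came at 0.11 and pmpca and tia1l at 0.12, beside an SD of 0.30. For serpine2, miga1 and sf3b6 came at 0.20 and adsl at 0.22, beside an SD of 0.57. For f13a1b, eif4g3a came at 0.14 and tcaim and zgc:100846 at 0.17, beside an SD of 0.30. These are the closest of 17891 profiles over the 9 libraries and carry no test.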

How the data were processed

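Per the submitters' processing notes, the authors used FastQC 0.11.8, Trimmomatic 0.33, STAR 2.6.0c, featureCounts 1.6.0 and DESeq2 1.18.1 with danRer11 (GRCz11). Libraries were polyA-selected and directional and read as pairs of 75 bases, per the labels' protocols; whether molecular indexes were used to remove duplicates is not given in the sources used here. The deposited values are a normalised signal, a whole number made from each read count and the size factor of its library. On the values, median-of-ratios factors of the libraries differed by at most 0.109% over 13019 genes above 0 everywhere, and the spacing of low values gave size factors of 0.851 to 1.398. Rounding hides whole reads in part of the libraries, so no count model was fitted. Columns of no sample in the series numbered 0.

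A pseudocount of 1 was added before the log2 step. Genes at 10 or more in at least 3 libraries, 17891 in all, were fitted in limma 3.58.1 (R 4.3.3) with all 9 libraries, a mean-variance trend, the robust step and 6 residual degrees of freedom. Tests were two-sided with Benjamini-Hochberg adjustment over all tested genes and a threshold of 0.05. The members and lists were chosen with earlier results of these data known. The genes named were all members, in each pathway list up to 3 past the threshold with the smallest adjusted p at 48 h and up to 2 in the other comparisons, certain pathway and marker genes whatever their result, and the 3 nearest profiles of each member; F13A1, vwf, elnb, csf1rb, tfa and hp were added after their values were seen, and 1 named gene was left out of the lists and is not reported here. Further list members were named, also after their values were seen, to show both directions within a list. Replicate numbers were not used to pair libraries in the main analysis. Alternatives covered scaling, pseudocount, filter, robust step, a replicate block, which groups were fitted and each library left out in turn. Sequences and coordinates are not used here. Python 3.11.15 with pandas 2.3.3, numpy 2.4.6 and matplotlib 3.10.9 drew the figures.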

Additional observations from a re-analysis of the deposited data

How the results depend on the processing

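Precision is limited by 3 libraries a group and, for low genes such as plaub, by depth; counting error was not modelled separately. Of the members, f13a1a.1 and plaua at 48 h against uninjured and f13a1a.1 at 21 d against 48 h kept their calls in every setting. The members were chosen by values in these same libraries, so kept calls describe the settings and add no evidence. Equal column totals moved the median log2 fold change of all genes to 0.28 at 48 h against uninjured and to -0.234 at 21 d against 48 h. Genes called were then 1345 higher and 652 lower at 48 h (794 and 1133 in the main analysis) and 607 higher and 1281 lower at 21 d against 48 h (980 and 788), with 1 member lower at 48 h and 1 higher at 21 d against 48 h. Quantile normalization gave 2 members higher at 48 h and 1 lower at 21 d against 48 h. Under both scalings 5 other pathway genes were higher at 48 h (4 in the main analysis), and 0 were lower at 21 d against uninjured and 0 higher at 21 d against 48 h. With a pseudocount of 0.5 or no robust step, 0 other pathway genes were lower at 21 d against uninjured, and with a pseudocount of 5 or no filter 2 were lower at 48 h. A fit of only the groups compared called 427 genes at 21 d against uninjured (153 higher and 274 lower; 260, 93 and 167 in the main analysis) and 0 other pathway genes higher at 21 d against 48 h. With the replicate number as a block, 2 other pathway genes were lower at 48 h instead of 1, lrp1aa being added, and f5 missed the threshold there (adjusted p = 0.0533). The numbers are those in the library titles. Deviations of same-numbered libraries correlated between -0.02 and 0.027 (9 pairs) and those of differently numbered ones between -0.044 and 0.052 (18 pairs). These values over all tested genes show no pairing, but could miss one that touched few genes.

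Leaving out 1 library at a time gave at 48 h 1382 to 1677 genes called (514 to 664 higher, 795 to 1119 lower), 1 member higher, 1 to 2 lower, and 1 to 3 other pathway genes higher and 1 to 3 lower. At 21 d against uninjured it gave 107 to 172 (28 to 71 higher, 69 to 106 lower) and 0 to 1 other pathway genes lower, and at 21 d against 48 h 1144 to 1669 (622 to 1034 higher, 497 to 635 lower), 1 to 3 members higher and 0 to 1 lower, and 0 to 2 other pathway genes higher and 3 to 6 lower. Signs turned only for differences that passed no test, the cause was not tested, and the log2 fold changes then read as follows. At 48 h with equal column totals f3a had 0.17, f3b 0.03, tgm2b 0.18 and kdrl 0.02, with quantile normalization tgm2b 0.20 and kdrl 0.02, and with 1 library left out f3a had -0.23 to 0.12. With 1 library left out, values at 21 d against uninjured ran from -0.22 to 0.51 for plat, -0.32 to 0.47 for itga2b, -0.13 to 0.13 for cdh5, -0.04 to 0.19 for myl7, -0.50 to 0.15 for f10, -0.38 to 0.16 for f5 and -0.37 to 0.02 for lrp1ab. Those at 21 d against 48 h ran from -0.29 to 0.13 for f13a1b, -0.11 to 0.66 for serpine2, -0.76 to 0.06 for itga2b, -0.21 to 0.20 for kdrl and -0.33 to 0.02 for lrp1aa.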
